A study of Homo sapiens with 8 samples.

Results

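Called binding regions of SMAD2 and TEAD4 were described at the loci of POU5F1, SOX2 and NANOG, the 3 core pluripotency genes, in WA09 cells, a line of human embryonic stem cells in wide use. A region was a member when any of its bases lay within 50 kb of one of these hg19 gene bodies: POU5F1 on chromosome 6 at 31132114 to 31138451, SOX2 on chromosome 3 at 181429712 to 181432224, and NANOG on chromosome 12 at 7941992 to 7948657. This rule, which used no measured value, took 100 of the 972037 regions in the 3 lists analysed: 44 of 420548 for SMAD2 in DMSO-treated cells, 31 of 262109 for TEAD4 in cells given 10 µM SB431542 for 4 h, and 25 of 289380 for TEAD4 in DMSO-treated cells. All cells were grown on Matrigel in conditioned medium and fixed with formaldehyde, and the DMSO cells received the solvent for the same 4 h. Input, IgG and SMAD2-SB431542 samples, 5 groups in all, were not analysed here. There was 1 library per group, so no value has a replicate error and no test between treatments or antibodies was made.

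POU5F1, which encodes OCT4, SOX2 and NANOG are transcription factors that maintain the undifferentiated state and bind the regulatory DNA of their own and each other's genes. SMAD2 is phosphorylated by the type I receptors for activin and Nodal, enters the nucleus with SMAD4 and reaches DNA together with partner factors; SB431542 inhibits those receptors. TEAD4 binds DNA directly and recruits the Hippo pathway coactivators YAP and TAZ. As background, upstream enhancers of POU5F1, enhancers on either side of SOX2, and a promoter element of NANOG bound by OCT4 and SOX2 are well-studied control elements of these genes; none of them was mapped onto the lists. The lists hold positions and no expression values, so the labelled cell type could not be checked against markers.

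None of the 3 lists had a region over the start of any of the 3 genes. The nearest region edges were 1202 bp from the POU5F1 start (SMAD2), 2442 bp from the SOX2 start (TEAD4, SB431542) and 1157 bp from the NANOG start (TEAD4, SB431542). The 250 bases before the start are shown for SOX2 and NANOG because they are the stretches that no list called. They are RefSeq sequence of build GRCh38.p14, plus strand, at chr3:181711675-181711924 and chr12:7789152-7789401, printed 5′ to 3′. Capitals mark matches, on either strand, to GGAATG (TEAD), CAGAC (SMAD), TTTGCAT (POU, a part of the octamer) or CATTGT (SOX).
SOX2: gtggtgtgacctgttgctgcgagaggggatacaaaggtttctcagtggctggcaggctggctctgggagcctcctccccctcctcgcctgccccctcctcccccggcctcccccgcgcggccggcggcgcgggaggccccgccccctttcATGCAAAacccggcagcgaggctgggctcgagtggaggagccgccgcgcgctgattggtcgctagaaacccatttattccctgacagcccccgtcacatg
NANOG: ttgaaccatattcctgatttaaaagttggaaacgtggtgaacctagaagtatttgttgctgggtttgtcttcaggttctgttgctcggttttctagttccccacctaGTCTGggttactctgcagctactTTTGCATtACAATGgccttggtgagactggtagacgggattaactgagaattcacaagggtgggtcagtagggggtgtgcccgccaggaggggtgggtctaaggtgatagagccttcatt
The NANOG stretch held a POU match 120 to 114 bases before the start. A SOX match on the minus strand followed after 1 base, at 112 to 107 bases. A SMAD match on the minus strand lay at 143 to 139 bases. In SOX2 the single match was a POU match on the minus strand, 100 to 94 bases before the start. Among 35116 RefSeq promoter stretches of this length, 3.94% held the POU letters, 9.29% the SOX letters, 38.0% the SMAD letters and 11.9% the TEAD letters. Neither stretch held GGAATG, the absence of which says nothing about TEAD4 elsewhere. POU5F1 was not among the matched entries.

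The values available for a region were its position, width and row. Rows were read as a ranking with the strongest regions first, which no header or label states. The rows themselves fell into runs that go down the chromosomes in reverse order, as tied scores sorted by position would give. Runs of at least 10 rows held 88.9% of the SMAD2 rows, 94.6% of the SB431542 TEAD4 rows and 97.6% of the DMSO TEAD4 rows. Rows within a run were therefore not ordered against each other, and the rows of the run are given where a rank matters. Starts of both DMSO lists lie on a 50 bp grid, against 1.97% of the SB431542 starts, so treatment and the way a list was made coincide and cannot be told apart.

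The 3 lists overlapped one another at a single place, upstream of POU5F1. At 1.45 kb upstream of its start, SMAD2 (31139751 to 31140049) and TEAD4 of DMSO cells (31139701 to 31140099) had the same midpoint, and TEAD4 of SB431542 cells (31139793 to 31139938) lay inside both, its midpoint 34.5 bp away. The SMAD2 region stood at row 668 (run of rows 667 to 670), the first 0.159% of its list. The TEAD4 regions ranked lower: row 62872 in SB431542 cells (24.0% of the way down the list, run of rows 62818 to 63064) and row 43699 in DMSO cells (15.1%, run of rows 42662 to 46875). Of 420548 SMAD2 regions, 1268 (0.302%) overlapped both TEAD4 lists, and this one was number 5 of those by SMAD2 row. It was the single member of that kind among the 44 SMAD2 regions at the 3 loci. Among the first 1000 SMAD2 rows, 7 regions (0.70%) overlapped both TEAD4 lists.

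Other SMAD2 regions near the POU5F1 start had no TEAD4 partner. One lay inside the gene body, 1.30 kb downstream of the start at 31137051 to 31137249, in row 20960 (4.98% of the list). A second one in the body, at 31134051 to 31134249, stood at row 124433 (29.6%), and one 3.95 kb upstream, at 31142301 to 31142499, at row 149106 (35.5%). SMAD2 was the only one of the 3 lists with a region in a gene body: 2 in POU5F1 and 0 in SOX2 and NANOG. POU5F1 and NANOG have many pseudogene copies in the genome, and how reads shared with them were placed is not given in the sources used here, so these body regions are uncertain.

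The TEAD4 region of DMSO cells with the lowest row at the 3 loci was also at POU5F1, 8.50 kb upstream at 31146751 to 31147149 (row 3030, 1.05% of the list, run of rows 2957 to 3239). SB431542 cells had no region over it. Their nearest regions lay 268 bp away at 31146327 to 31146482 (row 60550) and 689 bp away at 31145867 to 31146061 (row 118428). The nearest SMAD2 region was 4251 bp away. These 2 regions, at 1.45 and 8.50 kb, were the whole TEAD4 set of DMSO cells within 50 kb of POU5F1, both 399 bp wide.

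At SOX2 the regions nearest the gene with a partner lay past its end. A TEAD4 region was called 4.22 kb downstream of the start in SB431542 cells (181433819 to 181434053, row 12974, 4.95% of the list) and 4.21 kb downstream in DMSO cells (181433801 to 181434049, row 18445, 6.37%, in a run of 1914 rows). They overlapped by 231 bp, with midpoints 11 bp apart, the closest match of TEAD4 between treatments at the 3 loci. A SMAD2 region (181434251 to 181434449, row 50035, 11.9%) followed at a gap of 197 bp from the SB431542 region and 201 bp from the DMSO region. Another TEAD4 region of SB431542 cells (181434539 to 181434673, row 96886) lay 89 bp past the SMAD2 region. SMAD2 and TEAD4 thus adjoined here without overlap.

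Further from SOX2, SMAD2 and TEAD4 of DMSO cells overlapped at 2 places that had no TEAD4 region in SB431542 cells. The first was 13.7 kb downstream for SMAD2 (181443301 to 181443499, row 132976, 31.6%) and 13.8 kb for TEAD4 (181443351 to 181443599, row 18444, 6.37%), with 149 bp shared. This TEAD4 region and the one at 4.21 kb were consecutive rows of one run, so their order carries no information. The second was at 15.3 kb for SMAD2 (181444901 to 181445099, row 236754) and 15.1 kb for TEAD4 (181444751 to 181444949, row 146152), with 49 bp shared. Nearest SB431542 regions were 2880 and 4280 bp from these TEAD4 regions. On the upstream side, within 5 kb of the SOX2 start, only the SB431542 list had regions, at 2.49 kb (181427165 to 181427270, row 249463, 95.2%) and 3.84 kb (181425788 to 181425953, row 112373, 42.9%). A TEAD4 region of DMSO cells 2.91 kb downstream of the start (181432551 to 181432699) was near the end of its list, in row 279353 (96.5%).

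Toward the end of the SOX2 window regions of all 3 lists met again without overlapping. SMAD2 had a region at 181474351 to 181474449 in row 409972 (97.5%). It lay 201 bp from each of 2 TEAD4 regions of DMSO cells, at 181473851 to 181474149 (row 42649, 14.7%) and 181474651 to 181475049 (row 149822, 51.8%). In SB431542 cells a TEAD4 region followed 468 bp further on, 45.9 kb downstream of the start, at 181475518 to 181475798 (row 19133, 7.30%).

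NANOG had TEAD4 regions just upstream under both treatments. In SB431542 cells they lay 1.22 kb (7940704 to 7940835, row 18911, 7.21% of the list) and 1.67 kb (7940260 to 7940379, row 102955, 39.3%) upstream of the start, and in DMSO cells 1.57 kb upstream (7940251 to 7940599, row 7019, 2.43%, run of rows 6483 to 7123). The DMSO region covered all 120 bp of the region at 1.67 kb, whereas the higher-placed SB431542 region lay 104 bp outside it. SMAD2 had a narrow region beside them, 1.84 kb upstream (7940101 to 7940199, row 330108, 78.5%), 60 bp from the nearer SB431542 region and 51 bp from the DMSO region. A lower-placed TEAD4 region of DMSO cells stood at 2.82 kb upstream (7939051 to 7939299, row 162018, 56.0%).

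A second place of TEAD4 under both treatments lay 12.0 kb downstream of the NANOG start. The DMSO region (7953901 to 7954149, row 23145, 8.00%) overlapped 2 SB431542 regions, at 7953875 to 7954001 (row 67148, 25.6%) and 7954073 to 7954243 (row 123843, 47.2%). A further overlap of TEAD4 between treatments, 14.0 kb upstream, joined a region from the last rows of the SB431542 list (7927914 to 7928012, row 261773, 99.9%) and one at 83.1% of the DMSO list (7927951 to 7928099, row 240561). No SMAD2 region lay within 1 kb of either place. SMAD2 and TEAD4 of DMSO cells overlapped once at this locus, by 99 bp at 34.6 and 34.5 kb upstream (SMAD2 7907301 to 7907499, row 69735, 16.6%; TEAD4 7907401 to 7907599, row 166088, 57.4%). The remaining TEAD4 region of DMSO cells in the first 10% of rows, 22.8 kb upstream (7919101 to 7919349, row 19307), belonged to the same run of 1914 rows as the 2 SOX2 regions and had no partner.

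**Figure D1:**
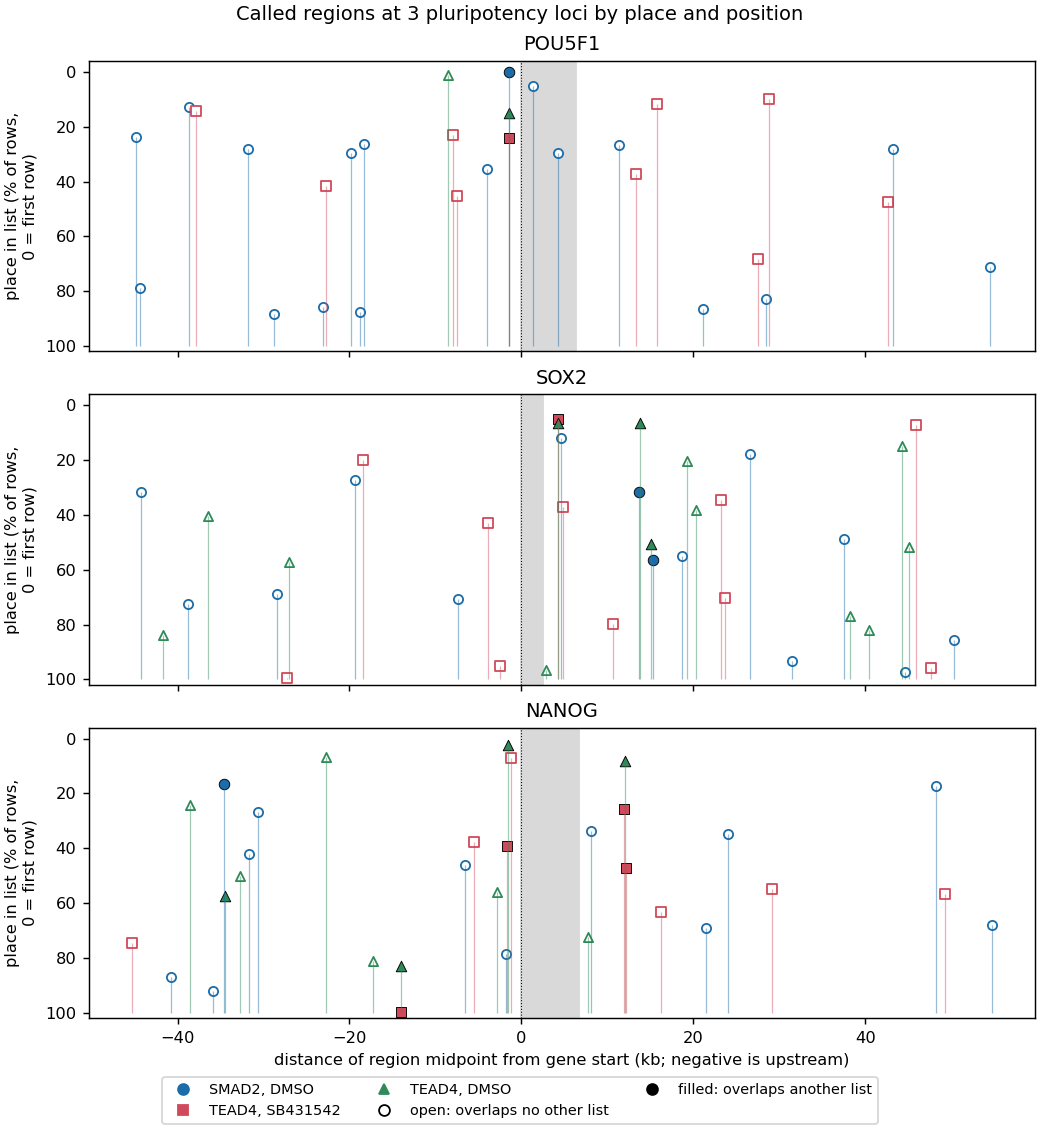
Every called region at POU5F1, SOX2 and NANOG by the distance of its midpoint from the gene start (kb, x axis) and its place in its list (percent of rows, y axis, first row at the top); circles are SMAD2 in DMSO, squares TEAD4 in SB431542, triangles TEAD4 in DMSO, filled where another list overlaps, and the grey band is the gene body. The SMAD2 region at row 668 stands at the top beside the POU5F1 start with both TEAD4 lists below it, and TEAD4 regions of both treatments stand high just past the SOX2 body and just upstream of NANOG.

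**Figure D2:**
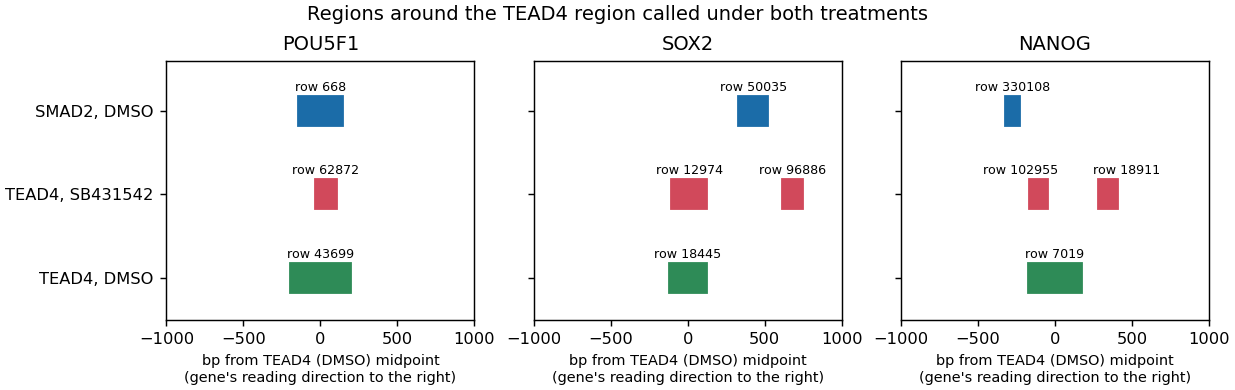
Regions within 1000 bp of the TEAD4 region of DMSO cells that lies nearest to each gene and is also called in SB431542 cells, drawn to scale in bp with the gene's reading direction to the right and one line per list, each bar labelled with its row. All 3 lists overlap at POU5F1, while the SMAD2 bar lies 201 bp past the TEAD4 bar of DMSO cells at SOX2 and 51 bp before it at NANOG.

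As drawn in the close-up of the TEAD4 regions, each of the 3 genes thus had, within 5 kb of its start, a TEAD4 region of DMSO cells with regions of both other lists overlapping it or within 1 kb. Genome-wide, 7.34% of the 269014 consecutive 10 kb stretches that held any region had such a place. The distance of 1 kb as a measure for all lists together was chosen after the values were seen, and stretches around other gene starts were not analysed here, so nothing particular to these genes can be read from it. Among the 25 TEAD4 regions of DMSO cells at the loci, 5 (20.0%) were of this kind, against 7.94% over the whole list.

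Overlap of TEAD4 between treatments was counted over all 3 loci. Of the 31 SB431542 regions, 6 (19.4%, 95% exact binomial interval 7.45 to 37.5%) overlapped a DMSO region, against 6.39% of the whole SB431542 list. Of the 25 DMSO regions, 5 (20.0%, 6.83 to 40.7%) overlapped an SB431542 region, against 5.69% of the whole DMSO list. Both intervals lie above the share of the whole list, although they cover only counting error and take each region as independent of its neighbours. Both shares count the same places, once from each list. Regions near other genes were not analysed here, so nothing particular to these genes can be read from the shares. The 5 DMSO regions were 1 at POU5F1, 1 at SOX2 and 3 at NANOG. Only the SOX2 pair met when an overlap of 50% of both regions was required (3.23% of SB431542 regions, 0.082 to 16.7%, and 4.00% of DMSO regions, 0.10 to 20.4%, against 2.51 and 2.28% of the whole lists). With midpoints within 100 bp, the share was 12.9% of the SB431542 regions (3.63 to 29.8%), against 3.98% of the whole list, and 16.0% of the DMSO regions (4.54 to 36.1%), against 3.60%. Within 1 kb, 38.7% of the SB431542 regions had a DMSO region (21.9 to 57.8%), against 24.5% of the whole list, and 36.0% of the DMSO regions had an SB431542 region (18.0 to 57.5%), against 22.4%. Under every rule the share at the loci was higher than that of the whole list. Under these 3 rules the interval lay above the share of the whole list only for the DMSO regions with the midpoint rule. Whether the difference exceeded counting error thus depended on how overlap is counted. Median width at the loci was 249 bp for the DMSO regions, against 199 bp over their list, and 146 against 145 bp for the SB431542 regions. A part of width in these shares was not tested.

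SMAD2 and TEAD4 of DMSO cells shared 4 places, 1 at POU5F1, 2 at SOX2 and 1 at NANOG. That is 4 of 44 SMAD2 regions (9.09%, 2.53 to 21.7%), against 5.29% of the whole SMAD2 list, and 4 of 25 TEAD4 regions (16.0%, 4.54 to 36.1%), against 7.67% of the whole TEAD4 list. Each interval includes the share of its whole list, so a higher share at these loci was not detectable with this number of regions. A TEAD4 region lay within 1 kb of 25% of the SMAD2 regions, about the 24.0% of the whole list, and a SMAD2 region within 1 kb of 52.0% of the TEAD4 regions (31.3 to 72.2%), an interval that includes the 34.2% of the whole list. SMAD2 and TEAD4 of SB431542 cells overlapped once, at POU5F1: 2.27% of the SMAD2 regions (3.39% of the whole list) and 3.23% of the SB431542 regions (5.46%).

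Places in the lists were spread over nearly the whole range. SMAD2 members ran from row 668 to row 409972 with a median place of 44.1%, the SB431542 TEAD4 members from row 12974 to row 261773 with a median of 41.6%, and the DMSO TEAD4 members from row 3030 to row 279353 with a median of 50.2%. In the first 10% of rows, which holds 10.0% of each list, were 2 of 44 SMAD2 regions (4.55%, 0.56 to 15.5%), 4 of 31 SB431542 TEAD4 regions (12.9%, 3.63 to 29.8%) and 6 of 25 DMSO TEAD4 regions (24.0%, 9.36 to 45.1%). All 3 intervals include 10%. Nearer the genes the DMSO TEAD4 share was higher, with intervals above 10%: 6 of 15 regions within 25 kb of the gene bodies (40%, 16.3 to 67.7%) and 4 of 8 within 10 kb (50%, 15.7 to 84.3%). Within 100 kb it was 8 of 69 (11.6%, 5.14 to 21.6%). These sets are nested, and regions as near to other genes were not analysed here, so nothing particular to these genes can be read from them. The 6 DMSO TEAD4 regions within 50 kb were 1 at POU5F1, 2 at SOX2 and 3 at NANOG, and 3 of them had an SB431542 partner (50%, 11.8 to 88.2%), against 12.8% of all DMSO TEAD4 regions in the first 10% of rows. Of the 4 SB431542 regions, the one at 28.8 kb downstream of the POU5F1 start (31109558 to 31109744, row 25517, 9.74%) has not been given above. Its nearest TEAD4 region of DMSO cells was 29956 bp away.

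**Figure D3:**
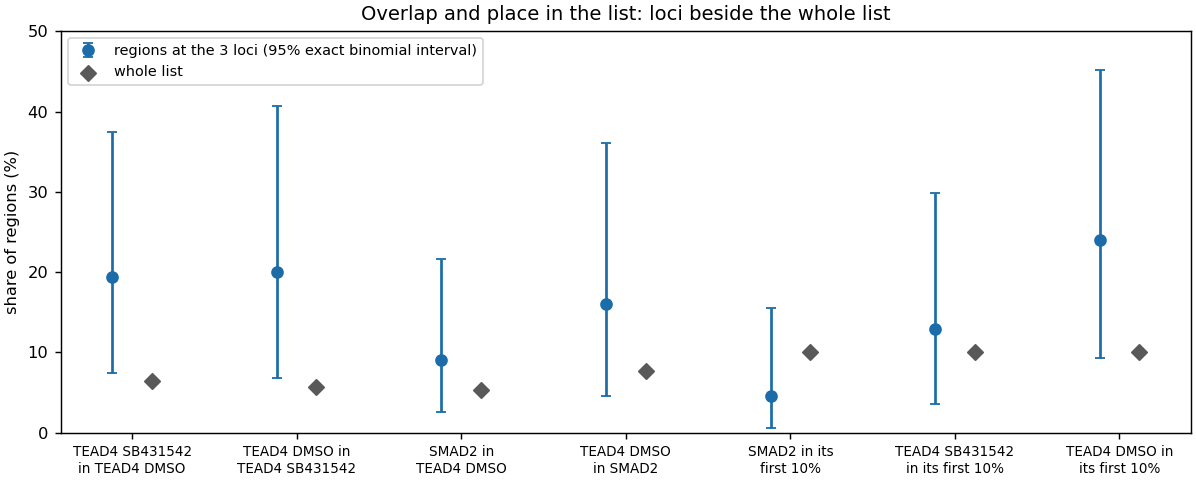
Share of regions (percent, y axis) at the 3 loci (circles, with 95% exact binomial intervals) beside the same share of the whole list (diamonds), for overlap between lists and for the first 10% of rows. The interval lies above the diamond for TEAD4 of one treatment in the other and includes it for the other 5 shares.

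The number of regions at each locus was close to that of the list as a whole, with one exception. POU5F1 had 18 SMAD2 regions, 10 TEAD4 regions in SB431542 cells and 2 in DMSO cells. SOX2 had 14, 11 and 13 in that order of lists, and NANOG had 12, 10 and 10. Per 100 kb the SMAD2 regions numbered 16.9, 13.7 and 11.3 at POU5F1, SOX2 and NANOG, against 13.6 over the whole list. The SB431542 TEAD4 regions numbered 9.40, 10.7 and 9.38, against 8.47, and the DMSO TEAD4 regions 1.88, 12.7 and 9.38, against 9.35. The exact Poisson interval of the DMSO TEAD4 density at POU5F1, 0.23 to 6.79 per 100 kb, lay below the value of the whole list; all others included theirs.

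The low count at POU5F1 was not kept at the wider limit of 100 kb. Of the 1579 consecutive stretches of the same length on chromosome 6 that held a region of any list, 0.633% had 2 or fewer TEAD4 regions of DMSO cells, and the median was 11 (interquartile range 8 to 14). No further TEAD4 region of DMSO cells was called between 10 and 50 kb from the gene body, but 16 more were within 100 kb, which gave 18, beside 16 in SB431542 cells. SMAD2 had 18 regions in the 50 kb window, and 34.9% of the chromosome 6 stretches had as many or more.

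**Figure D4:**
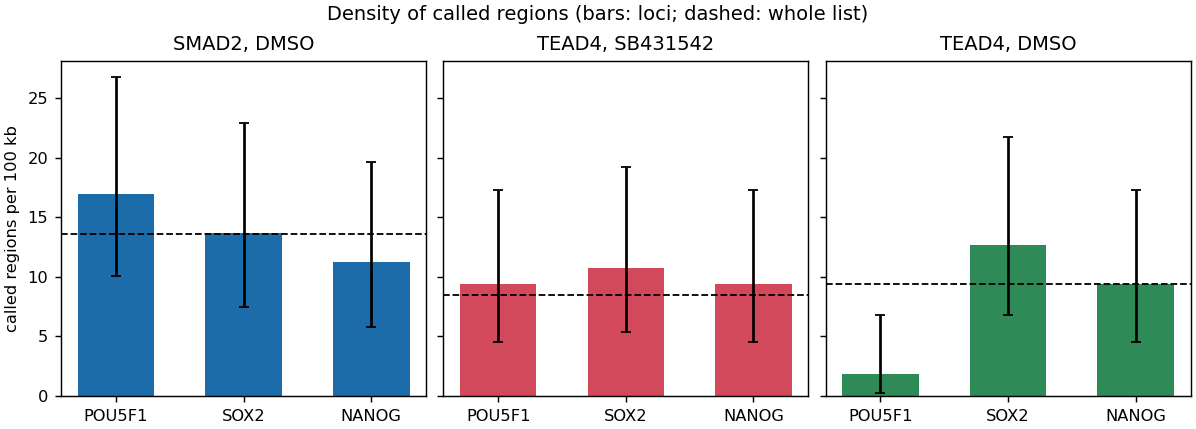
Called regions per 100 kb (y axis) within 50 kb of POU5F1, SOX2 and NANOG, one panel per list, as bars with 95% exact Poisson intervals, and the density of the whole list as a dashed line. The bar for TEAD4 in DMSO cells at POU5F1, 1.88 per 100 kb, is the one whose interval does not reach its dashed line.

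Close to the genes the TEAD4 list of SB431542 cells was denser. Within 10 kb of the 3 gene bodies it held 16 regions, 5 at POU5F1, 5 at SOX2 and 6 at NANOG, which is 21.2 per 100 kb (12.1 to 34.4) against 8.47 over its whole list. TEAD4 of DMSO cells had 2, 2 and 4 regions there, 10.6 per 100 kb (4.57 to 20.9) against 9.35, and SMAD2 had 5, 2 and 3, 13.2 per 100 kb (6.35 to 24.4) against 13.6. With wider limits the SB431542 density was nearer to that of its list: 9.83 per 100 kb within 50 kb (6.68 to 13.9) and 9.10 within 100 kb (6.87 to 11.8). Stretches within 10 kb of other genes were not analysed here, so nothing particular to these 3 genes can be read from the 10 kb value. Whether the treatment or the making of the list gave the higher SB431542 density cannot be told apart. Other genes lie in these windows (TCF19 and PSORS1C3 flank POU5F1, and NANOGNB and SLC2A14 flank NANOG, in RefSeq order), so a region in a window is not assigned to POU5F1, SOX2 or NANOG. Genes that begin further off and span a window, at SOX2 or elsewhere, were not looked for. Exons and introns were not analysed here, as no annotation of hg19 was used.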

How the data were processed

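The lists deposited by the authors have no header and 3 columns (chromosome, start and end of a called region), with no score. Per the submitters' processing notes they are on hg19. How reads were aligned, which caller, threshold and control were used, and whether libraries were pooled is not given in the sources used here. The depth behind a region is therefore not known. Lists were tied to samples by antibody and treatment in their names. Starts are printed raised by 1 bp, as for BED, and a width is the end minus the deposited start. Gene bodies were given with the question. Distances run from the gene start to a region's midpoint, with POU5F1 on the minus strand. Overlap means at least 1 bp. The regions printed are, per locus and list, the lowest row, the nearest to the start, those in the body or within 5 kb of the start, those overlapping another list and those in the first 10% of rows; the regions 44.3 to 45.9 kb from SOX2 and the SB431542 regions beside the one 8.50 kb from POU5F1 were added after their values were seen. Promoter stretches were to be shown only where a region lay beside the start; that was relaxed. Whole-list densities divide by the summed span to the last region of each chromosome, gaps included. Comparison stretches were counted by region midpoint. Intervals are 95% Clopper-Pearson or exact Poisson and cover counting error only. Loci and lists were chosen with earlier results of these data known. Functions were tested on simulated data. Python 3.11.15, NumPy 2.4.6, pandas 2.3.3, SciPy 1.17.1 and matplotlib 3.10.9 were used.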

Additional observations from a re-analysis of the deposited data

How the results depend on the processing

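Of 72 recomputed values (10 results under 10 settings, not all of which apply to each), 58 lay within the interval of the value reported and 14 outside. Membership by midpoint gave the reported counts unchanged, and many intervals are wide, so this tally says little about how stable the values are. With a limit of 10 kb from the gene body, SB431542 TEAD4 density was 21.2 per 100 kb. There, 4 of 8 DMSO TEAD4 regions (50%, 15.7 to 84.3%) overlapped an SB431542 region, against 5.69% of the whole list. In the first 10% of rows were 2 of 10 SMAD2 regions (20.0%, 2.52 to 55.6%) and 4 of 8 DMSO TEAD4 regions (50%, 15.7 to 84.3%). Regions as near to other genes were not analysed here, so nothing particular to these genes can be read from these shares. With 25 kb the SB431542 density was 14.5. The first 50% of rows of each list gave 7.61 regions per 100 kb for SMAD2, 6.34 for TEAD4 in SB431542 and 3.80 for TEAD4 in DMSO, lower by construction. With 50% of both regions required, 3.23% of SB431542 and 4.00% of DMSO TEAD4 regions overlapped each other's list. Within 1 kb, 25% of SMAD2 regions had a DMSO TEAD4 region, 52.0% of DMSO TEAD4 regions a SMAD2 region, and 38.7% of SB431542 regions a DMSO region. The first 25% of rows held 18.2% of the SMAD2 regions (8.19 to 32.7%), an interval that includes the 25% of the whole list. By construction, the rule of 50% of both regions can only lower a share, and the rules of 1 kb and of the first 25% of rows can only raise it. For the limits of 10 and 25 kb the cause was not tested. No paired analysis was possible because there is a single library in every group; for that reason none was left out either. Absence from a list means not called at a depth and threshold that are not stated.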

Other observations

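Wider stretches were counted after the numbers at the loci were seen. In 500 kb centred on POU5F1 the density was 16.0 SMAD2 regions per 100 kb, 9.40 TEAD4 regions in SB431542 cells and 9.40 in DMSO cells, against 13.6, 8.47 and 9.35 over the whole lists. Over 1000 and 2000 kb around POU5F1, TEAD4 of DMSO cells stood at 9.40 and 7.95 per 100 kb. Around SOX2, TEAD4 of DMSO cells stood at 12.6 per 100 kb over 500 kb, 13.5 over 1000 kb and 10.8 over 2000 kb. TEAD4 of SB431542 cells was at 8.60, 9.0 and 8.55. No interval was computed for these wider stretches. Other stretches of 500 to 2000 kb on chromosome 3 were not counted, so how common such values are is not known. Of its consecutive stretches only as long as the SOX2 window, 32.2% had as many DMSO TEAD4 regions as that window or more. Around NANOG the 500 kb values were 14.6 for SMAD2, 10.2 for TEAD4 in SB431542 cells and 11.8 for TEAD4 in DMSO cells.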
